A study of Mus musculus with 2 samples.

Results

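Small leucine-rich proteoglycans, fibulins and elastin are part of the fibrous matrix under an epithelium, and their transcripts were followed here in the surface and the body of the fetal mouse liver. The genes were decorin (Dcn), lumican (Lum), biglycan (Bgn), fibromodulin (Fmod), osteoglycin (Ogn), fibulins 1, 2 and 5 (Fbln1, Fbln2, Fbln5), fibrillin 1 (Fbn1) and elastin (Eln). They were chosen as a family of genes, with earlier results of these data known, and every probe set that the platform annotation assigned to one of these symbols alone was taken. That gave 23 of the 45101 probe sets on the array, for 9 of the 10 genes. No probe set was matched to Fbn1, which is not analysed here.

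RNA came from wild-type C57Bl6 embryos at E12.5 in both groups, and each group was 1 array with no replicate. Livers were taken apart with trypsin-EDTA, and mesothelial cells, the flat epithelium over the organ, were sorted by FACS as cells positive for podoplanin (Pdpn). The other array held liver cells of the same stage, and the labels do not say whether Pdpn-positive cells had been taken out of them. They also do not say how many embryos were pooled, Pdpn is not made by mesothelium alone, and a free-text label on both samples describes much younger embryos, against the stated age. With 1 array a group nothing was tested, and the values describe these 2 arrays only. Fewer cells of a type and less RNA per cell cannot be told apart in such samples.

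Small leucine-rich proteoglycans are secreted proteins with a horseshoe-shaped core of leucine-rich repeats that binds collagen, and most carry sugar chains of the chondroitin, dermatan or keratan sulphate kind. They set the width and spacing of collagen fibrils, and several bind growth factors of the TGF-beta family. Elastic fibres have a core of crosslinked elastin laid down on microfibrils of fibrillin, and the fibulins help to join the parts. In the liver these proteins are known from the capsule, the portal tracts and the perisinusoidal stellate cells.

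All 9 measured genes read higher on the mesothelial array. With each gene taken at its brightest probe set, by mean log2 intensity of the 2 arrays, every one was at least 2-fold higher, against 36.2% of all 18193 genes. The differences, given as log2 intensity in mesothelial minus liver cells, ran from 1.92 for Dcn to 5.02 for Fmod, with a median of 3.39. The median over all genes was 0.66, so the typical gene was itself 1.58-fold brighter on the mesothelial array, and the members' median was 2.73 above it. Of the 9 genes, 8 were at least 4-fold higher (11.4% of all genes) and 7 at least 8-fold higher (3.2% of all genes), and none was higher by 2-fold or more in liver cells (4.16% of all genes). After each array was centred on its own median, all 9 were still at least 2-fold higher, against 17.6% of all genes. Dcn (1.29) and Lum (1.87) were then under 4-fold, and Bgn (2.42), Fbln1 (2.74) and Fbln2 (2.76) were between 4-fold and 8-fold. All 9 lay above the intensity floor defined below. Among genes above it the shares were larger, 45.4% at 2-fold, 15.9% at 4-fold and 23.9% at 2-fold after centring. Over single probe sets, 18 of 23 reached 2-fold in mesothelial cells, against 32.2% of the 34945 probe sets with 1 gene symbol. None reached 2-fold in the other direction, against 3.96%. The other 5 probe sets differed by less than 2-fold and are described with their genes.

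**Figure D1:**
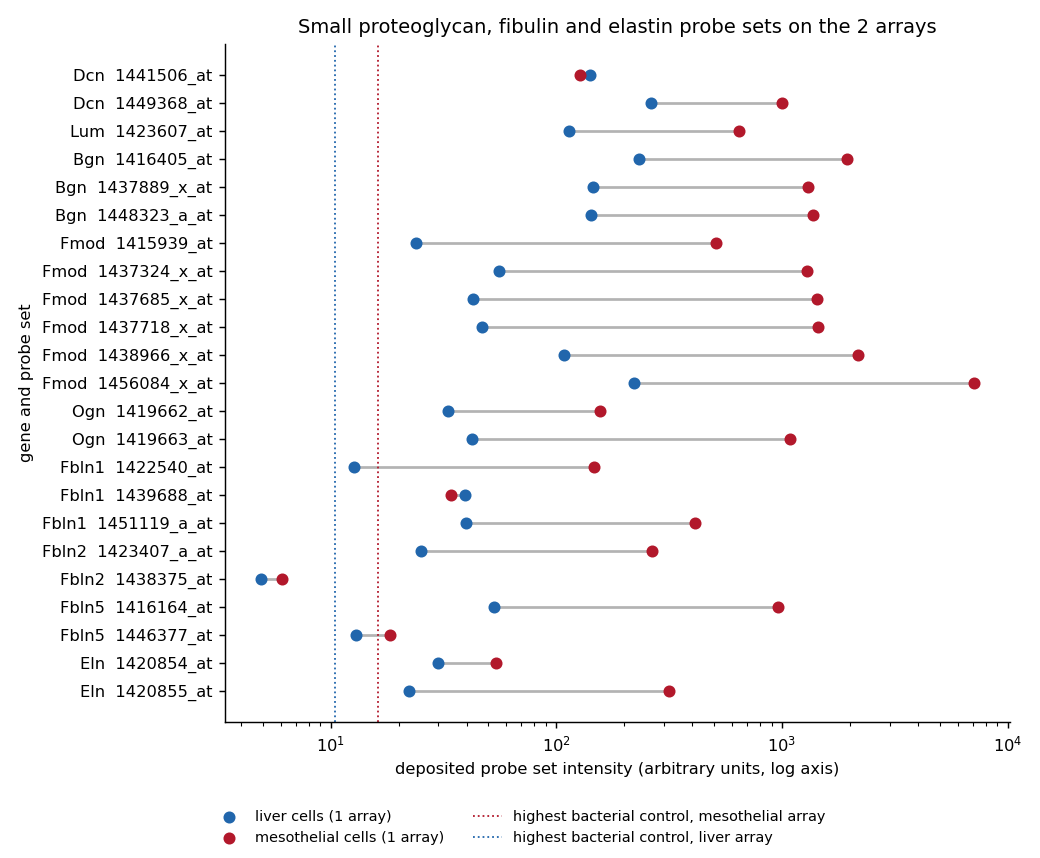
Deposited intensity (x, log axis) of every probe set of the 9 measured genes (y) on the mesothelial array (red points) and the liver array (blue points), each 1 array with no error to show, joined by a grey line; dotted lines mark the highest bacterial control of each array. The 6 Fmod probe sets have long lines to the right, while 1 probe set each of Dcn and Fbln1 has the points nearly together with liver cells slightly higher.

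Fibromodulin, a keratan sulphate proteoglycan that binds collagen I and steers fibril assembly, had the largest difference at the probe set taken. Its 6 probe sets read 512.1, 1288.7, 1429.5, 1448.9, 2173.2 and 7128.2 on the mesothelial array. On the liver array the same 6 read 24.0, 55.7, 42.9, 47.0, 108.2 and 220.3. Every one of the 6 was brighter in mesothelial cells, from 20.1-fold to 33.3-fold. The differences ran from 4.33 to 5.06, with an SD of 0.33 between probe sets. That SD is between probe sets within the pair of arrays and carries no variation between embryos, sorts or amplifications. Pooled over 5323 genes, with only probe sets above the intensity floor defined next, it was 0.70. Only 0.158% of the 12018 genes above the intensity floor (at or above the array's median probe set on at least 1 array) had a larger difference than the probe set taken for Fmod. Of its 6 probe sets, 5 have the suffix _x_at, which marks probes that can cross-hybridise, and the one without it (1415939_at) was 21.3-fold higher. That is a difference of 4.42, under the 4.69 of Ogn, so without probe sets ending in _x_at or _s_at Ogn ranked first.

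Osteoglycin, also called mimecan, is a small keratan sulphate proteoglycan of connective tissue. Its 2 probe sets read 1090.8 and 155.5 in mesothelial cells and 42.3 and 33.1 in liver cells. Both were brighter in mesothelial cells but by unequal amounts, 25.8-fold for 1419663_at and 4.70-fold for 1419662_at. The annotation gives the same sequence tag for the pair, and their differences of 4.69 and 2.23 had an SD of 1.74.

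Biglycan, an X-linked relative of decorin that binds collagen and signals through Toll-like receptors when released, had the closest agreement between probe sets. Its 3 probe sets read 1937.5, 1374.0 and 1303.0 in mesothelial cells and 233.2, 142.1 and 144.9 in liver cells. All 3 were brighter in mesothelial cells, by 8.31-fold, 9.67-fold and 8.99-fold. The differences of 3.05, 3.27 and 3.17 had an SD of 0.11.

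Lumican, a keratan sulphate proteoglycan that keeps collagen fibrils evenly spaced in the cornea and skin, has 1 probe set, so nothing checks its value. It read 646.3 in mesothelial and 113.5 in liver cells, 5.69-fold higher, a difference of 2.51.

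Decorin, the dermatan sulphate proteoglycan that coats collagen fibrils and binds TGF-beta, had the smallest difference of the 9 genes. The probe set annotated with its RefSeq transcript (1449368_at) read 999.4 in mesothelial and 263.6 in liver cells, 3.79-fold higher. On the liver array that is 25.1 times the highest bacterial control, so decorin transcript was read in both samples. Its other probe set (1441506_at), annotated with an expressed sequence tag, read 126.9 and 141.7, slightly brighter in liver cells. The differences of 1.92 and -0.16 had an SD of 1.47, and their median was 0.88. The call of Dcn as at least 2-fold higher thus holds for 1 of its 2 probe sets, and 17.4% of genes above the floor had a larger difference than the one taken.

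**Figure D2:**
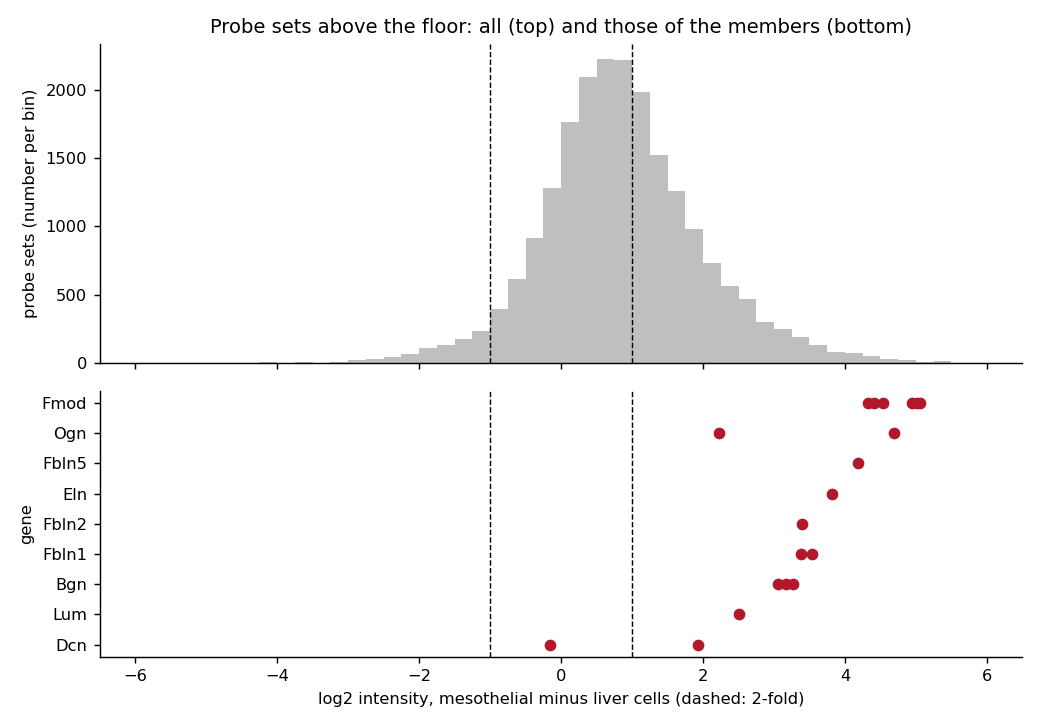
Top, number of probe sets with 1 gene symbol above the floor (y) by log2 intensity in mesothelial minus liver cells (x, bins of 0.25); bottom, the member probe sets above the floor, 1 row a gene, on the same x axis. All Fmod points lie beyond 4, the Bgn points sit together just above 3, and 1 Dcn point lies just below 0.

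The upstream sequences of the 3 genes with the largest differences that have an entry in the RefSeq promoter table (Fmod, Ogn and Fbln5) and of Bgn are shown, since these genes read higher in the same sample and their promoters differ in composition. Each is the 250 bases before the annotated start, 5′ to 3′ on the gene's strand, from RefSeq for GRCm38.p6. Capitals mark matches on either strand to 7 motifs: the TATA box TATAAA, the GC box GGGCGG, the CCAAT box, the AP-1 site TGANTCA, the TEAD site GGAATG, the SMAD element CAGACA and the E-box CACGTG. Matches of 2 motifs can overlap.
Fmod chr1:134037004-134037253 (+ strand): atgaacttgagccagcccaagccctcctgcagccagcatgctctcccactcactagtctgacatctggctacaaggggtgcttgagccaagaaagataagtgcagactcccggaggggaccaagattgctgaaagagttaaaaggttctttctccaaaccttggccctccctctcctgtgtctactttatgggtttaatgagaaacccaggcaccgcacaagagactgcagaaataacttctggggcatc
Ogn chr13:49607765-49608014 (+ strand): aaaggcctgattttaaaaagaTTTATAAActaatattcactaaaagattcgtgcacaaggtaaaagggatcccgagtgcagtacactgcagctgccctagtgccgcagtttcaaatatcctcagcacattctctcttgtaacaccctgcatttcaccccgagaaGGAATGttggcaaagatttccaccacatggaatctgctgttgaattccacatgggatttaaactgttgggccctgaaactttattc
Bgn chrX:73483351-73483600 (+ strand): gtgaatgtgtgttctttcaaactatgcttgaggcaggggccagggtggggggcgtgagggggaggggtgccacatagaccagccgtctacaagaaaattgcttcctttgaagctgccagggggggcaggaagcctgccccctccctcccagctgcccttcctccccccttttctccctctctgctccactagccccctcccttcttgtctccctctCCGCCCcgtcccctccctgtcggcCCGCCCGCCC
Fbln5 chr12:101819120-101819369 (- strand): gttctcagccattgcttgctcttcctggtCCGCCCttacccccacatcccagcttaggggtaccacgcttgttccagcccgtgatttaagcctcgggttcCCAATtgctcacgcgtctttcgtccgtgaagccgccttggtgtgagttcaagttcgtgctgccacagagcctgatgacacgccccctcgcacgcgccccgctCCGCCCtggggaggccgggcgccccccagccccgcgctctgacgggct

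Of the 10 genes, 7 have an entry, with 9 starts in all. The Fmod stretch held none of the 7 motifs. The Ogn stretch was 42.0% G and C, held TATAAA on each strand in 2 overlapping matches near the far end of the stretch, and held GGAATG once, 86 bases before the start. The Bgn stretch was 64.4% G and C and held GGGCGG 3 times, 2 of them overlapping. The more distant of the 2 annotated starts of Fbln5, shown here, was 65.2% G and C with 21 CpG pairs and held GGGCGG at 2 places and CCAAT at 1. The stretch before its other start, not shown, was 49.6% G and C with 6 CpG pairs. Of the 7 motifs that stretch held only CAGACA, at 1 place. Over 32841 promoter stretches of this length the median G and C content was 52.4%, the median number of CpG pairs was 6, and 12.4% held TATAAA, 32.7% held GGGCGG, 33.9% held CCAAT, 12.6% held GGAATG, 6.75% held the AP-1 site, 17.1% held the SMAD element and 6.02% held the E-box. These matches are letters in a window and describe no binding.

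The fibulins are calcium-binding proteins of basement membranes, microfibrils and elastic fibres, and all 3 were more than 10-fold higher in mesothelial cells at the probe set taken. Fibulin 5, which tethers elastin to microfibrils and to integrins, read 956.2 against 52.8 at 1416164_at, 18.1-fold higher. Its other probe set (1446377_at) lay under the floor at 18.3 against 13.0, a difference of 0.49 that changed sign under other scalings. Fibulin 1, a component of basement membranes and elastic fibres, read 410.6 against 39.6 and 147.5 against 12.7 at a pair of probe sets, 10.4-fold and 11.6-fold higher. The third (1439688_at), annotated with a sequence tag, read 34.1 against 39.3, and so was not brighter in mesothelial cells. Fibulin 2, which binds fibrillin and basement membrane proteins, read 264.9 against 25.2 at 1423407_a_at, 10.5-fold higher. Its second probe set (1438375_at) read 6.1 and 4.9, below the highest bacterial control on both arrays, and gave no measure of the gene.

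Elastin, the crosslinked core protein of elastic fibres, was measured by 2 probe sets that the annotation assigns to the same sequence tag. At 1420855_at it read 315.7 in mesothelial and 22.3 in liver cells, 14.2-fold higher. At 1420854_at it read 53.8 and 29.9, under the floor on both arrays and 1.80-fold higher. The differences of 3.82 and 0.85 had an SD of 2.10.

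Agreement between probe sets differed by gene. The SD was 0.11 for Bgn and 0.33 for Fmod, but between 1.47 and 2.61 for the 6 other genes with several probe sets. The pooled 0.70 counts only probe sets above the floor, while the SDs of Fbln1, Fbln2, Fbln5 and Eln include one under it. Of the 6, only Dcn (1.47) and Ogn (1.74) compare with the pooled value directly, and both lie above it. Grouped by the kind of sequence the annotation gives, all 15 probe sets with a RefSeq transcript, a cDNA clone or no sequence named were at least 2-fold higher, with differences from 1.92 to 5.06. Of the 8 annotated with an expressed sequence tag, 3 were, with a median of 0.67. Over all probe sets above the floor the share at least 2-fold higher was 46.6% for sequence tags and 38.9% for RefSeq transcripts. The order over the array was thus the other way, and the 8 include 4 probe sets under the floor. Only the prefixes AV and BB were counted as sequence tags. A further 6444 probe sets above the floor had prefixes not assigned to a kind, and their share was 42.0%. Where a probe set lies on its transcript was not analysed here. The 3′ over 5′ intensity ratio of the beta-actin control was 2.30 on the mesothelial and 1.49 on the liver array, that of the Gapdh control 2.15 and 1.95, that of the transferrin receptor control 27.3 and 7.23, and that of the pyruvate carboxylase control 4.60 and 9.03. The part of these ratios in the differences was not tested.

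**Figure D3:**
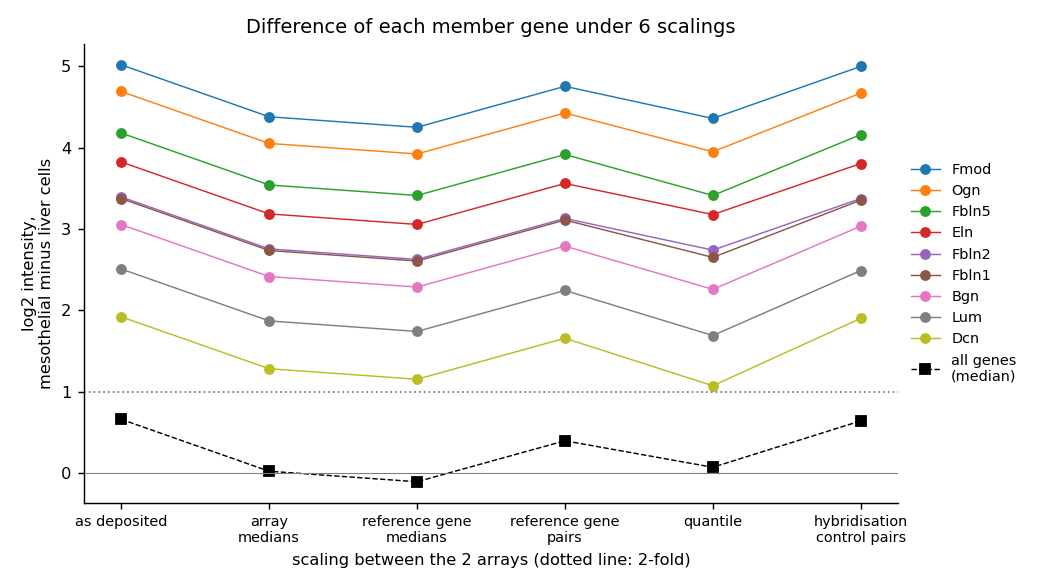
Log2 intensity in mesothelial minus liver cells (y) of the 9 measured genes (coloured lines) and the median of all genes (black squares) as deposited and under 5 other scalings between the arrays (x); 1 array a group, so there are no error bars. The genes keep nearly the same order, and Dcn comes closest to the dotted 2-fold line, at 1.08 by quantile normalization.

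Several small proteoglycan genes lie next to each other, and the neighbours of the members had smaller differences at the probe set taken. In the RefSeq order of protein-coding genes Dcn, Lum, Kera and Epyc follow one another, as do Ecm2, Aspn, Omd and Ogn, and Optc, Prelp and Fmod. Beside Ogn, the osteomodulin gene Omd read 160.9 against 183.1, a difference of -0.19. Asporin (Aspn) lay under the floor at 64.5 against 25.8 and 31.4 against 4.2, and both probe sets of Ecm2 were at control level in mesothelial cells. Beside Fmod, the probe sets of Prelp read 49.8 against 23.8 and 41.1 against 11.7, and opticin (Optc) 21.2 against 9.4, all under the floor. Beside Lum, the corneal keratocan gene Kera was under the floor at 32.9 against 17.4, and epiphycan (Epyc), a cartilage proteoglycan, read 91.5 against 37.2, 2.46-fold higher as deposited and under 2-fold after median centring. Of 11 other family members measured, 3 lay above the floor and 1 of those reached 2-fold, against 45.4% of the 12018 genes above the floor. After median centring none did in mesothelial cells, against 23.9%, and none did in liver cells, against 9.25%. Their median difference was 0.92, which is 0.25 above that of all genes, beside 3.05 for the 5 members. Of the 11, Chad, Ecm2 and Nyx were at control level in mesothelial cells, and Podn, under the floor at 39.7 against 13.2, had the largest difference at the probe set taken, 1.59. Second probe sets of Aspn and Prelp differed by 2.90 and 1.81.

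**Figure D4:**
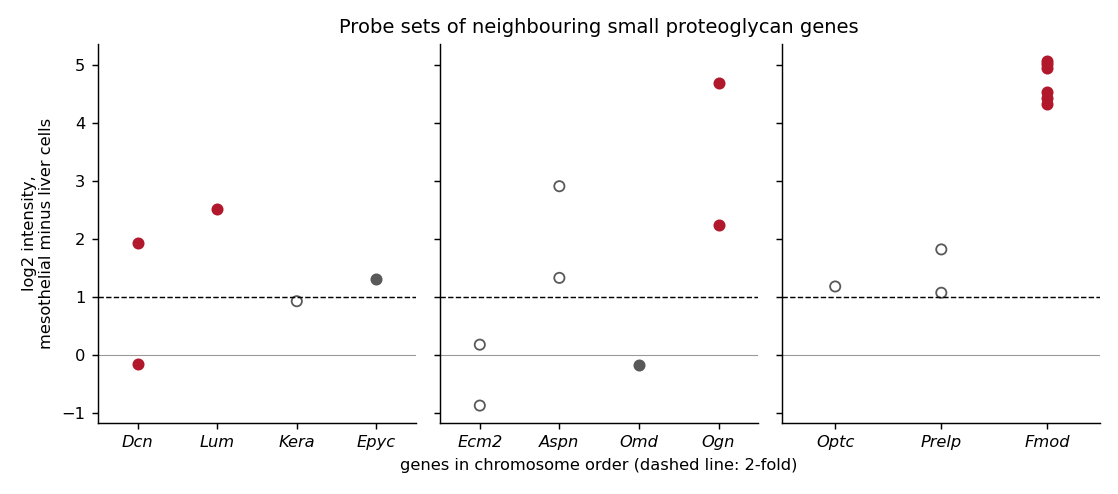
Log2 intensity in mesothelial minus liver cells (y) of every probe set of 3 runs of neighbouring small proteoglycan genes in chromosome order (x); red, members; grey, other genes; open circles, probe sets under the floor. Ogn and Fmod stand above 2 and 4 while the grey points beside them stay below 3 and, apart from Omd and Epyc, are open.

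Other fibulin genes also read higher in mesothelial cells. Efemp1, which encodes fibulin 3, read 954.6 against 42.4, 22.5-fold higher, and the giant fibulin hemicentin 1 (Hmcn1) read 254.0 against 24.5, 10.4-fold higher. Fbln7 was under the floor at 47.1 against 12.4. The median over these 3 was 3.37.

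Of the listed microfibril and related genes 18 were measured, and 14 lay above the floor. The list is broad and also holds emilin, multimerin and ADAMTS-family genes. A 2-fold excess in mesothelial cells was reached by 12 of the 14 (45.4% of all genes above the floor), also after median centring (23.9%), and one in liver cells by none (3.83% of genes above the floor). Their median difference of 2.09 was 1.42 above that of all genes. Mfap4, a microfibril protein that binds elastin and fibrillin, read 1032.9 against 79.0, 13.1-fold higher. Fbn2, the fibrillin of embryonic microfibrils, read 2174.3 against 322.2, or 6.75-fold higher (2 probe sets, SD 0.58). It lies outside the rule for named genes and was added after its value was seen, as the relative of the unmeasured Fbn1. Adamtsl1 read 168.3 against a liver value at control level, 10.5, at the probe set taken, and its 3 probe sets had a median difference of 0.52. Adamts10, a protease-family protein that binds fibrillin, was 8.75-fold higher at the probe set taken (2 probe sets, SD 1.63, lowest difference 0.83). The elastin-microfibril interface gene Emilin2 read 613.4 against 441.3, a difference of 0.48 that changed sign under other scalings.

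The latent TGF-beta binding proteins, which dock latent growth factor on microfibrils, went the same way. Of 5 measured, 4 lay above the floor and reached 2-fold (45.4% of all genes above the floor), 3 of them also after median centring (23.9%), and the median difference was 2.32. Ltbp1 read 5050.6 against 1010.5, a difference of 2.32 at the probe set taken. Its 3 probe sets had a median difference of 1.70 and a lowest of -0.50 (SD 1.48). Ltbp3 read 2855.4 against 489.3, or 5.84-fold higher (4 probe sets, SD 0.93). Ltbp4, a partner of fibulin 5 in elastic fibre assembly, was at control level in liver cells and at least 10.5-fold higher. Nrros, which tethers latent TGF-beta on myeloid cells, was 2.99-fold higher.

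Lysyl oxidases crosslink elastin and collagen. The 3 above the floor, of 4 measured, reached 2-fold with and without median centring, against 23.9% and 45.4% of all genes above the floor. Of these, Loxl1 and Loxl3 passed the floor through the mesothelial array alone. Lox read 2475.6 against 142.2, or 17.4-fold higher at the probe set taken (3 probe sets, SD 1.75, lowest difference 0.62). Loxl1, the family member tied to elastic fibre upkeep, read 347.9 against 17.4, or 20.0-fold higher (2 probe sets, SD 1.19). Loxl3 was 6.01-fold higher. Among enzymes that cut elastin and their inhibitors, 7 of 10 above the floor reached 2-fold, 5 of them also when centred, beside the same shares. The gelatinase gene Mmp2 was 22.3-fold higher (2 probe sets, SD 0.05). The inhibitor gene Timp1 was 8.72-fold higher. Timp2 was 7.67-fold higher at the probe set taken, and its 6 probe sets had a median difference of 2.03 and a lowest of 0.43 (SD 1.32). The macrophage elastase gene Mmp12 read 7.2 on both arrays, at control level, and Neu1, a sialidase of the elastin receptor complex, differed by 0.37, which changed sign under other scalings.

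Enzymes that build the sugar chains of these proteoglycans were also read. Of 21 measured for chondroitin and dermatan sulphate, 17 lay above the floor, 13 of these reached 2-fold (45.4% of all genes above the floor) and 7 did so when centred (23.9%). Their median difference of 1.39 was 0.72 above that of all genes. The 3 with the largest differences all act on dermatan sulphate: the epimerase genes Dse and Dsel, which turn glucuronic into iduronic acid, read 1440.9 against 135.5 and 1061.1 against 86.8, 10.6-fold and 12.2-fold higher, and the dermatan sulphotransferase gene Chst14 was 5.28-fold higher. Each has 1 probe set. B3gat3, which completes the linker shared by all such chains, read 175.9 against 177.2. For keratan sulphate, 4 of 5 above the floor reached 2-fold, and 3 did so when centred, beside the same shares. B3gnt7 and B4galt4, which extend the chain, were 6.83-fold and 5.77-fold higher, the sulphotransferase gene Chst1 3.73-fold higher, and Chst2 1.91-fold.

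Collagens and other partners of the small proteoglycans were also read. Of 20 fibril collagen and processing genes measured, 16 lay above the floor and 14 of those reached 2-fold (45.4% of all genes above the floor), also when centred (23.9%). Their median difference was 3.15. Collagen VI, a beaded filament that binds biglycan and decorin, read 3031.9 against 73.1 for Col6a1 and 3363.2 against 78.0 (2 probe sets, SD 0.04) for Col6a2. Col12a1, a collagen on the fibril surface, read 355.6 against 11.7 at the probe set taken, and its 4 probe sets had a median difference of 0.82 and a lowest of -1.03 (SD 2.52). The procollagen enhancer gene Pcolce2 read 219.1 against 164.9, a difference of 0.41 that changed sign under other scalings. Large proteoglycans had a median difference of 0.86 over 15 measured genes, 0.19 above that of all genes. Of 6 above the floor, 4 reached 2-fold and 3 did so when centred, beside the same shares. Versican (Vcan), an early embryonic hyaluronan-binding proteoglycan, was 6.70-fold higher at the probe set taken. Its 8 probe sets had a median difference of 0.41 and a lowest of -2.02 (SD 1.57). The basement membrane proteoglycan perlecan (Hspg2) was 3.58-fold higher at the probe set taken and differed by 0.89 at its other one (SD 0.67). Spock2 was 6.86-fold higher at the probe set taken and differed by -0.34 at its other one (SD 2.21). The brain proteoglycan gene Ncan read 47.9 against 53.3. Among 19 genes for receptors and growth factors that bind small proteoglycans, 12 of 16 above the floor reached 2-fold (45.4% of all genes above the floor) and 6 did so when centred (23.9%). Their median difference was 1.10. Tgfb3 was 25.5-fold higher, Ccn4, a matricellular partner of decorin and biglycan, 13.3-fold, and the endocytic receptor gene Lrp1, which takes up decorin, 12.6-fold. P2rx4, a channel linked to biglycan signalling, differed by 0.58, which changed sign under other scalings.

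**Figure D5:**
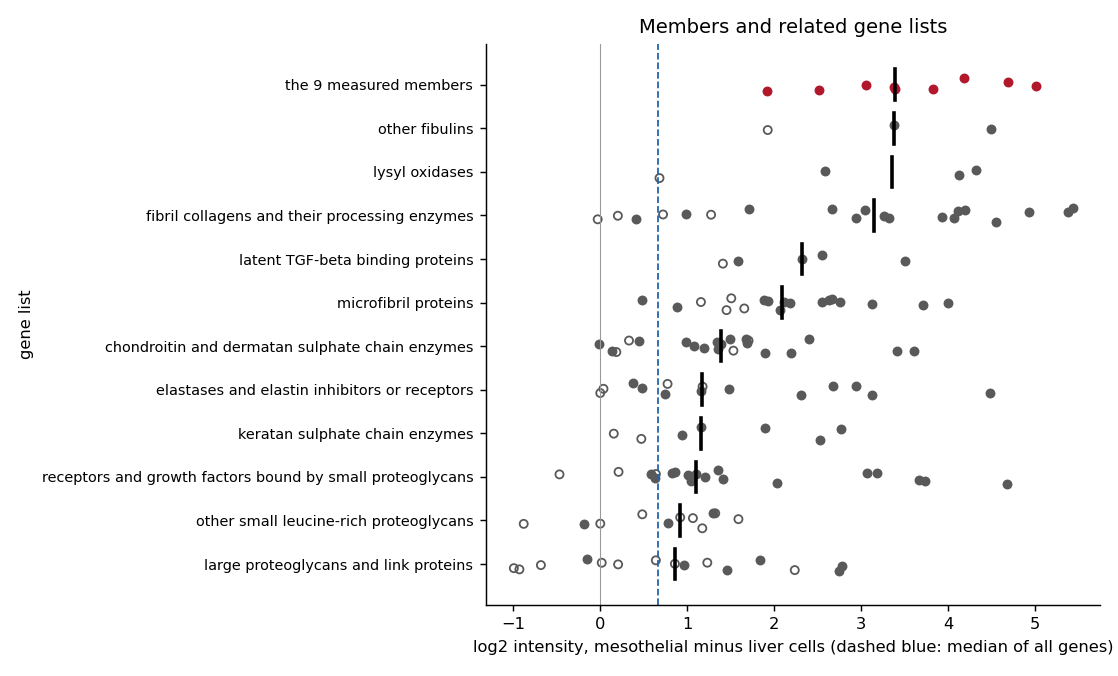
Log2 intensity in mesothelial minus liver cells (x) of each measured gene of 11 related lists and of the members (y); filled, above the floor; open, under it; black bars, list medians; dashed blue, the median of all genes, 0.66. The 9 members, other fibulins, lysyl oxidases and fibril collagens have medians above 3, and other small proteoglycans and large proteoglycans have medians near that of all genes.

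Markers of several cell types were brighter on the mesothelial array together with these genes. Of 17 mesothelial markers, 14 of 16 above the floor reached 2-fold in mesothelial cells, against 45.4% of all genes above the floor, and none was at control level in the sorted cells. Of 18 stellate or fibroblast markers, 16 of 17 above the floor reached 2-fold, with a summed intensity of 47691 against 8172 and none at control level on either array. The list holds Col1a1 and Vim, the 2 brightest there, and both are also made by mesothelium. Smooth muscle or pericyte markers reached 2-fold in 8 of 10 above the floor (sums of 4493 and 944), striated muscle for 12 of 13 (7097 and 1509) and megakaryocyte for all 9 (26774 and 6782). These counts stand beside the same 45.4%. After median centring 14 of 16 mesothelial and 14 of 17 stellate or fibroblast markers reached 2-fold, against 23.9% of all genes above the floor. So did 7 of 10 smooth muscle or pericyte, 9 of 13 striated muscle and 7 of 9 megakaryocyte markers. Of 8 cartilage or bone markers measured, 5 were under the floor, among them Acan and Matn3 at control level in the sorted cells, and the list summed to 475 against 162. The other 3, Sox9, Col2a1 and Col9a1, were higher by 2-fold or more in the sorted cells, and Col2a1 and Col9a1 passed the floor through that array alone. No hepatoblast marker was at control level on either array, and the list summed to 72616 in the sorted cells against 46687 in liver cells. The median difference of that list, 0.70, was only 0.04 above that of all genes, and the list shares keratin genes with the mesothelial one. Macrophage markers reached 2-fold in 7 of 10, hepatoblast in 3 of 9 and endothelial in 4 of 12; when centred, 4, 1 and 1 did, against 23.9% of all genes above the floor. Liver cells were higher by 2-fold or more for 6 of 10 erythroid markers and 6 of 10 neutrophil or mast cell markers (3.83% of all genes above the floor), and mesothelial cells for none of the erythroid and 1 of the neutrophil or mast cell markers. The part of stellate, fibroblast, muscle or blood cells in the differences of the proteoglycan, fibulin and elastin genes was not tested. The median probe set read 65.8 on the mesothelial and 42.3 on the liver array, and the highest of 27 bacterial controls read 16.2 and 10.5. Pdpn, the sorted marker, was 38.8-fold higher, which checks the labels only.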

How the data were processed

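Both arrays were Affymetrix Mouse Genome 430 2.0 chips; per the labels' protocols, 20 ng of total RNA was amplified and labelled with biotin, which can alter transcript ratios. The deposited values are probe set intensities, judged linear from their range (3.2 to 27470.4); RMA and Partek stand in the submitters' processing notes, without version or role. Log2 was taken first, with no rescaling in the main values. Names came from the platform annotation where it gave 1 symbol (34945, control probe sets left out; 932 had several and 9160 none), and sequence kinds were read from accession prefixes. A gene was taken at its brightest probe set by mean log2. The floor was the median of all probe sets on at least 1 array, where the design had named only the array with the higher value, and calls were differences of at least 1 (2-fold). Genes low in liver cells, among them Fbln1, Fbln2, Eln, Hmcn1, Ltbp4, Loxl1 and Loxl3, passed the floor through the mesothelial array alone. Counts above the floor thus favour calls on that array, and so do the shares over all genes above it. A lower value at or below the highest bacterial control gave an "at least" fold. The number of arrays limits precision. Members and lists were chosen with earlier results of these data known. Named were all members, in each related list up to 3 genes above the floor with the largest difference and the one furthest the other way, family neighbours, and the 2 brightest markers of a cell type list; genes outside this are Fbn2, Fbln7, Podn, Chad, Nyx, Mmp12, Acan, Matn3 and Pdpn, and most named markers are not printed. Of 10 members, 7 were matched by symbol in the promoter table. Reference genes numbered 11 and hybridisation controls 18. Calculations used Python 3.11.15, pandas 2.3.3 and numpy 2.4.6, and were checked on simulated data. The alternatives are given in the closing section.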

Additional observations from a re-analysis of the deposited data

How the results depend on the processing

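No paired analysis was possible because each group was 1 array. All 9 measured genes stayed at least 2-fold higher in mesothelial cells under the 5 other scalings, without cross-hybridising probe sets, with low values set to the control level, with no floor and with a pseudocount of 16. The count was 8 at a 4-fold threshold and 7 with the mean or median over probe sets (where Dcn was under 2-fold and Fbln2 under the floor) or with a floor at the 75th percentile (Fbln2 and Eln under it). The 18 probe sets that were at least 2-fold higher stayed so under the 5 other scalings, the lowest at 1.08; without probe sets ending in _x_at or _s_at, 12 of the 17 left were. The members' median of 3.39 was 2.63 when arrays were centred on the reference genes, 2.34 with the mean and 2.51 with the median over probe sets, each further off than the spread between probe sets. The 4 scalings that subtract a constant lower all differences by 0.02 to 0.77, and quantile normalization moved Dcn from 1.92 to 1.08. Of 557 alternative values, members and related lists together, 446 kept within that spread or within 1.5 times for counts, 111 moved further and 0 called values reversed. With 1 array a group, variation between embryos, sorts and amplifications is unknown, and probe sets near the bacterial controls have little signal over background.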
